A study of Mus musculus with 127 samples.

Results

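The mitochondrial respiratory chain is described here through its subunits encoded in the nucleus, measured as RNA in blood-forming stem and progenitor cells of mouse bone marrow. The members are the 84 of 23366 gene symbols in the count table that begin with Ndufa, Ndufb, Ndufc, Ndufs or Ndufv and a number, are Sdha, Sdhb, Sdhc or Sdhd, or begin with Uqcr, with Cox4 to Cox8 or with Atp5. Symbols of the Ndufaf assembly factors were left out. By name, 37 members belong to complex I, 4 to complex II, 8 to complex III, 18 to complex IV and 17 to complex V. The rule goes by symbol, so it takes in Ndufa4, named for complex I but known as a subunit of complex IV, and Atp5s and Atp5sl, which are named for complex V but are not among its structural subunits. The table held 0 symbols of subunits encoded in mitochondrial DNA.

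Stem cells with long-term activity (LT) or short-term activity (ST) and the multipotent progenitors after them (MPP) were sorted by surface markers from the marrow of 4 young and 2 old mice. They were kept in medium for stem and progenitor cells, and their polyadenylated RNA was sequenced by SMART-seq2, which copies whole transcripts from few cells. The stimulated course, from old mouse 2 and young mice 1, 2 and 3, received 100 ng/ml lipopolysaccharide (LPS) with 1 ug/ml Pam3csk4, which are ligands of the Toll-like receptors Tlr4 and Tlr2, and was taken at 0, 0.5, 1, 2, 4, 8 and 12 h. Unstimulated cells of young mouse 4 and old mouse 4 received no ligand and were taken at 0, 2, 4 and 8 h. The labels give ages as young and old without a number, and no strain or genotype. Stimulated and unstimulated courses came from different mice. The columns of each stimulated mouse carry a date of their own, and those of the unstimulated pair share a prefix and carry no date, so the effect of the ligands and differences between mice or library sets cannot be told apart.

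The respiratory chain passes electrons from NADH (complex I) and succinate (complex II) through ubiquinone to complex III, and on through cytochrome c to oxygen at complex IV. Complexes I, III and IV pump protons across the inner mitochondrial membrane, and complex V, the ATP synthase, lets them back in to make ATP. Quiescent haematopoietic stem cells are known to rely more on glycolysis and less on this chain than the progenitors they give rise to.

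Nuclear genes for the chain share promoter elements, and the factors NRF1, GABPA of the ETS family, YY1 and SP1 are known to activate many of them. RefSeq promoter windows of the GRCm38.p6 build, from 250 bases before to 50 bases after the transcription start, were given for 69 members. The NRF1 half-site TGCGCA, which is its own reverse complement, was in 18 of these 69 windows (26.1%), against 8.06% of 27025 windows of all genes. The ETS motif CCGGAAG was in 15 (21.7%, against 9.12%), the YY1 motif AAGATGG in 11 (15.9%, against 6.48%) and the SP motif CCCGCCC in 24 (34.8%, against 25.8%), each read on both strands. None of the motifs was in 23 member windows, and 0 windows held all of them. A match describes the letters only and says nothing of binding in these cells. Windows of 1 gene for each complex, each chosen for holding the NRF1 half-site, serve as examples and are not typical of these promoters. Those of Ndufb8, Sdhd, Cox6a1 and Atp5f1 hold 3 of the motifs each, more than most windows with the half-site. The windows of Cox5b, Ndufb10, Ndufs5 and Sdha, like that of Uqcrc1, hold the half-site and none of the other motifs. Capitals mark every match of the motifs above on either strand.
Ndufb8, chr19:44555393-44555692, minus strand: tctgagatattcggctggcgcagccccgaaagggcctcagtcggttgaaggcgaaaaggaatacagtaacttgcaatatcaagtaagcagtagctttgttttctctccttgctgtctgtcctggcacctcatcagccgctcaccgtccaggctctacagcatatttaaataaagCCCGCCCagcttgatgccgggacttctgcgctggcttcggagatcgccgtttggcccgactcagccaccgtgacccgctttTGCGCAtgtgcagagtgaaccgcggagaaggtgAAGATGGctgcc
Sdhd, chr9:50603800-50604099, minus strand: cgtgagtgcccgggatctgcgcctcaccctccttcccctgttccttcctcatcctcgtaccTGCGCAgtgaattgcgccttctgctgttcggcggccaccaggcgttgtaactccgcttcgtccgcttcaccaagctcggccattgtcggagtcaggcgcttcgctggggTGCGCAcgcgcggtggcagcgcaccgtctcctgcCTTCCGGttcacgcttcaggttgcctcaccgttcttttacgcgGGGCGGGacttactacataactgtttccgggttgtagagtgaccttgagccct
Uqcrc1, chr9:108936398-108936697, plus strand: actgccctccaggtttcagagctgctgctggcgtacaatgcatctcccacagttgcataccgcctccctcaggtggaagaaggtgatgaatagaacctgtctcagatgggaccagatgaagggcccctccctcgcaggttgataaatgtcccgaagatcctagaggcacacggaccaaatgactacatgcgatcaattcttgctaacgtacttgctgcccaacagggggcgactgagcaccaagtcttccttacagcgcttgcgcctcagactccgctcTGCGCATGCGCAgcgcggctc
Cox6a1, chr5:115348909-115349208, minus strand: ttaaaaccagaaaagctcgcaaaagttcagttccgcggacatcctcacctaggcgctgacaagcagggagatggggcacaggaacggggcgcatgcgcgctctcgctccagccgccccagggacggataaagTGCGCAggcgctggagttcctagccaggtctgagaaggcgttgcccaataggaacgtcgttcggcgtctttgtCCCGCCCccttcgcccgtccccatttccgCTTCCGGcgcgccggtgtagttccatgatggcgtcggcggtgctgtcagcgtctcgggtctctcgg
Atp5f1, chr3:105959214-105959513, minus strand: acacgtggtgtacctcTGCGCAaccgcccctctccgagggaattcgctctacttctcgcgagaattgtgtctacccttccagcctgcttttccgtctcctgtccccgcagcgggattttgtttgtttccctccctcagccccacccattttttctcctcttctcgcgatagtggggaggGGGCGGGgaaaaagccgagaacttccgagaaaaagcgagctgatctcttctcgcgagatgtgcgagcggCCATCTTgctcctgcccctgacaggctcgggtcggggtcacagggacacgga
Ndufb8, an accessory subunit of complex I, and Atp5f1, a stalk subunit of complex V, each hold the NRF1 half-site with a YY1 and an SP match, while Sdhd, a membrane anchor of complex II, and Cox6a1 of complex IV hold it with an ETS and an SP match. In the window of Uqcrc1, a core protein of complex III, 2 half-sites stand side by side, after the start.

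After technical repeats had been added up, 108 libraries remained, 36 for each cell type, with 990809 to 11764643 counts. Stimulated libraries were mostly deeper than unstimulated ones. Those of young mice had 1740282 to 5393517 counts at 8 h and 3658054 to 11764643 at 0 h with ligand, against 1369286 to 1883834 and 1899177 to 2680433 in unstimulated mice. Levels are CPM (counts divided by the total of the library, times 1000000), a share of the library, so they compare 1 gene between libraries and not 1 gene with another. In bulk RNA, fewer cells of a type and less RNA per cell cannot be told apart. The labels of the sort were checked against 7 stem cell markers and 3 markers of MPP at 0 h (medians of 6 mice). Slamf1 had medians of 26.7, 0 and 0.774 CPM in LT, ST and MPP, and Mecom and Fgd5 also had their highest median in LT. Procr (15.7, 54.1 and 17.9 CPM) and Hlf (58.0, 98.4 and 62.6 CPM), which also mark long-term stem cells, were highest in ST and lowest in LT, against the label, and Kit and Ly6a were highest in ST. Flt3 had medians of 32.5, 152 and 346 CPM in LT, ST and MPP, and Cd34 and Cd48 were highest in MPP too. The ranges over mice overlapped between the cell types for all 10 markers, except between LT and MPP for Cd48. Genes of mature neutrophil granules were also present, at 98.8 to 64447 CPM at 0 h in young mice, and their values stand beside the results they move with.
Of the 84 members, 63 had a count in every library and none was at 0 in all of them. The members with few counts were mostly isoforms known from heart and skeletal muscle, testis or hypoxic cells. Cox7b2, Cox8b, Cox8c and Ndufa4l2 had a count in 1 of 108 libraries each, and at most 0.457 CPM. Cox7a1 had a count in 29 libraries and at most 10.4 CPM, Cox4i2 in 46 and at most 15.7 CPM, Cox6a2 in 72 and at most 16.2 CPM, and Cox6b2 in 99 and at most 30.3 CPM. Their widely expressed counterparts Cox4i1, Cox6a1, Cox6b1, Cox7a2, Cox7b, Cox8a and Ndufa4 had a count in all 108 libraries, and so did Atp5g1, Atp5g2 and Atp5g3, which all encode the same mature subunit of the membrane ring of complex V. Cox4i1 lay between 285 and 822 CPM over the 108 libraries, Cox8a between 84.6 and 420.4 CPM, and Ndufa4 between 38.3 and 494 CPM. Outside the isoforms, Atp5s (81 libraries, at most 31.4 CPM), Atp5sl (98), Ndufs5 (99) and Sdhc (103) were the members most often at 0.

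**Figure D1:**
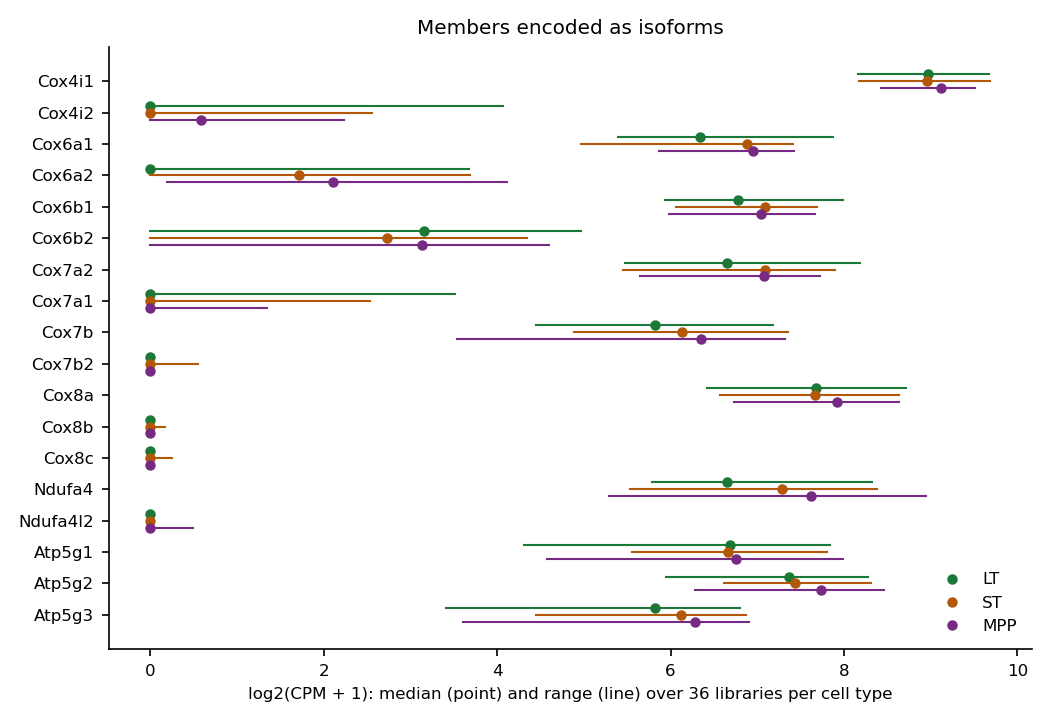
Level of members that exist as isoforms, on a log2(CPM + 1) axis without correction for gene length, as the median (point) and range (line) over 36 libraries for each of LT, ST and MPP. Cox4i2, Cox7a1, Cox7b2, Cox8b, Cox8c and Ndufa4l2 sit at or near 0, while Cox4i1, Cox8a and the Atp5g genes had counts in all 108 libraries.

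At 0 h the summed level of the members was lower in LT than in MPP of the same mouse, in all 4 young and both old mice, by less on average than the spread between young mice. Their summed level averaged 10841 ± 2136 CPM in LT, 11114 ± 2451 CPM in ST and 11742 ± 1867 CPM in MPP (SD, n = 4 young mice each). Between mice the sum ran over 8889 to 13879 CPM in LT, 8899 to 14569 CPM in ST and 10312 to 14337 CPM in MPP, so the cell types overlapped between mice. The place of ST in the order was not fixed: young mouse 1 had 10474, 10943 and 11866 CPM in LT, ST and MPP, and young mouse 4 had 10120.2, 10046 and 10312 CPM. By complex, LT and MPP averaged 2892 ± 744 and 3247 ± 613 CPM for complex I, 674 ± 98.2 and 747 ± 35.0 CPM for complex II, and 1123 ± 227 and 1154 ± 213 CPM for complex III. They averaged 2173 ± 516 and 2345 ± 543 CPM for complex IV, and 3978 ± 615 and 4249 ± 553 CPM for complex V. Each of these differences was smaller than the SD of LT between mice.

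Gene by gene, edgeR's quasi-likelihood test with Benjamini-Hochberg adjustment called 0 of 78 tested members between LT and MPP, LT and ST, or ST and MPP at 0 h, and it called none of the 11568 genes tested (0%) in any of them. DESeq2 and limma voom called 0 members too, and 0 members had an unadjusted p under 0.05 in edgeR, beside 2.65%, 2.79% and 1% of all genes in either direction. Counted by direction, 16 members (20.5%) were lower in LT than in MPP in every young mouse, beside 10.7% of all genes, and 3 were lower in LT than in ST, beside 7.52%. In ST, 10 were lower than in MPP in every mouse, beside 9.64%. The share of members was thus above that of all genes for LT against MPP and near or under it for the others. The median member was 0.11 lower in LT than in MPP on the log2 scale, against 0.03 lower for all genes.

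Members with the same direction in all 4 young mice show how small these differences were. Ndufs7, a core iron-sulfur subunit of complex I, had 86.5, 94.6, 96.0 and 91.6 CPM in LT of young mice 1, 2, 3 and 4, against 139, 124, 126 and 107 CPM in ST (log2 difference -0.41, SE 0.22, adjusted p 1 by edgeR and Benjamini-Hochberg). Its groups did not overlap. Cox5a, a subunit of complex IV, had 138, 177, 82.8 and 111 CPM in LT, against 204, 189.5, 134 and 149.98 CPM in MPP, and was lower in LT in each mouse. Ndufa4 had 231, 333, 106 and 112 CPM in ST, against 316, 451, 211 and 144 CPM in MPP, lower in each mouse, although the mice differed more from each other than the cell types did.

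Old mice did not stand apart from young mice in LT or ST. At 0 h the summed level was 9705 and 12681 CPM in LT of old mice 2 and 4, inside the young range given above, and 12497 and 11546 CPM in their ST. In MPP old mice 2 and 4 had 13699 and 13292 CPM, against 11866, 14337, 10454 and 10312 CPM in young mice 1, 2, 3 and 4. Both old mice lay above 3 of the 4 young ones and below young mouse 2. In MPP 69 of 79 tested members had a positive log2 difference between old and young, with a median of 0.14 against -0.04 for all genes, and in ST 50 did, with a median of 0.12 against -0.03. In LT 34 did, with a median of -0.08 against 0.01. The sign of the LT and ST medians rested on single mice: without old mouse 2 they were 0.07 and -0.11, without young mouse 2 the LT median was 0.13, and without young mouse 3 the ST median was -0.08.

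No member passed between the ages: edgeR's quasi-likelihood test called 0 of 79 members and 0% of 12983 genes in LT, 0 members and 0% in ST, and 0 members and 0% in MPP. DESeq2 and limma voom also called 0 members, and 0 members had an unadjusted p under 0.05 in edgeR, beside 3.39%, 4.24% and 0.431% of all genes in either direction. Members above all young mice in both old ones numbered 2 in LT (Ndufs3 and Ndufs7, beside 6.41% of all genes), 2 in ST (Ndufs3 and Atp5g1, beside 5.5%) and 3 in MPP (Atp5c1, Ndufa10 and Ndufs8, beside 5%). These shares were at or under those of all genes. Atp5g1 had 218 and 208 CPM in ST of old mice 2 and 4, against 141, 188, 81.4 and 124 CPM in ST of young mice 1, 2, 3 and 4. Ndufs3, a core subunit of complex I, had 109 and 123 CPM in old LT, against 74.6, 84.7, 87.8 and 74.2 CPM in young LT. With 2 old mice, in different courses and library sets, age and mouse cannot be told apart.

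**Figure D2:**
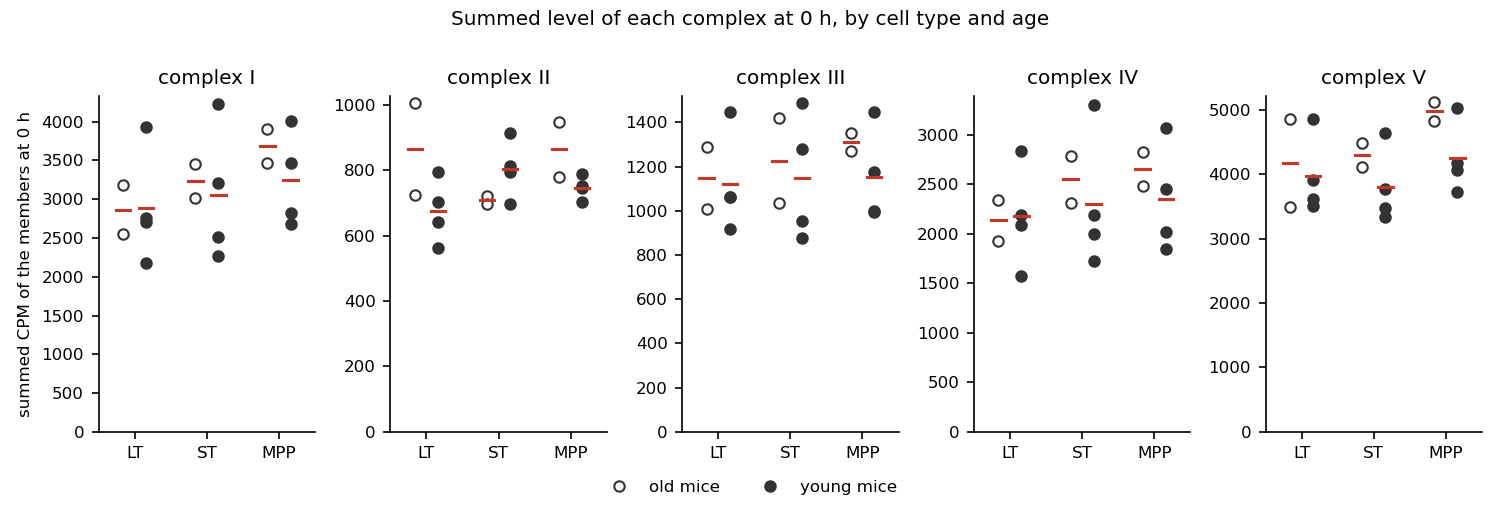
Summed CPM of the members of each complex at 0 h by cell type, with old mice as open points left of young mice as filled points and red bars for the means (2 old and 4 young mice). The points of old and young mice overlap in most panels, and complex V in MPP lies at 4837 to 5128 CPM in old mice and 3724 to 5027 CPM in young mice.

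The clearest pattern in these genes was a lower share of the RNA at later times, in every mouse, in both courses and in all 3 cell types. At 8 h the summed level was 7909, 10046 and 6618 CPM in stimulated LT of young mice 1, 2 and 3 and 7103 CPM in those of old mouse 2, against 10474, 13879 and 8889 CPM and 9705 CPM at 0 h. In unstimulated LT of young mouse 4 and old mouse 4 it was 6062 and 7289.9 CPM at 8 h, against 10120.2 and 12681 CPM at 0 h. All 6 mice were lower at 8 h. In stimulated ST the sums were 8198, 10164 and 7265 CPM and 9985 CPM at 8 h, against 10943, 14569 and 8899 CPM and 12497 CPM at 0 h, and in unstimulated ST they were 6497 and 7144 CPM, against 10046 and 11546 CPM. In stimulated MPP they were 7737, 10848 and 8552 CPM and 10303 CPM at 8 h, against 11866, 14337 and 10454 CPM and 13699 CPM at 0 h, and in unstimulated MPP 5824 and 6885 CPM, against 10312 and 13292 CPM. Every pair of libraries had the lower value at 8 h, while the levels of different mice overlapped between the times with ligand and did not without it.

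As a percent of the level of the same mouse at 0 h, stimulated young LT stood at 100.9 ± 11.0, 95.3 ± 4.60, 82.9 ± 4.51, 70.6 ± 8.75, 74.1 ± 1.59 and 75.1 ± 12.1 at 0.5, 1, 2, 4, 8 and 12 h (SD, n = 3 mice). ST stood at 88.2 ± 1.49, 86.8 ± 4.52, 76.7 ± 9.66, 74.0 ± 10.1, 75.4 ± 5.96 and 74.6 ± 3.01 at those times, and MPP at 87.1 ± 6.68, 81.3 ± 7.66, 74.5 ± 5.07, 71.7 ± 13.5, 74.2 ± 8.39 and 76.1 ± 7.91. At 0.5 h the sum was thus lower than at 0 h in all 3 young mice in ST and MPP, and in 2 of 3 in LT. From 4 h on the stimulated cells stayed at about the same level. Old mouse 2 had its lowest values at 4 h as well, at 64.0% in LT, 76.0% in ST and 73.2% in MPP, and stood at 88.3%, 82.9% and 83.97% at 12 h.

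Without ligand the level went on down to the last time. At 2, 4 and 8 h it averaged 80.7%, 69.7% and 58.7% of the 0 h level in LT, 83.5%, 70.1% and 63.3% in ST, and 81.6%, 65.5% and 54.1% in MPP (n = 2 mice). At 2 and 4 h the courses overlapped. At 8 h young mice 1, 2 and 3 and old mouse 2 with ligand stood at 75.5, 72.4, 74.5 and 73.2% in LT, against 59.9 and 57.5% in young mouse 4 and old mouse 4 without ligand. In ST they stood at 74.9, 69.8, 81.6 and 79.9%, against 64.7 and 61.9%, and in MPP at 65.2, 75.7, 81.8 and 75.2%, against 56.5 and 51.8%. In each cell type all 4 stimulated mice were above both unstimulated mice at 8 h. With CPM scaled by TMM, which adjusts for a few abundant genes, the 8 h means with ligand were 80.0%, 84.3% and 87.0% in LT, ST and MPP (n = 3 young mice), against 65.8%, 73.5% and 64.6% without ligand, and the courses still did not overlap.

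**Figure D3:**
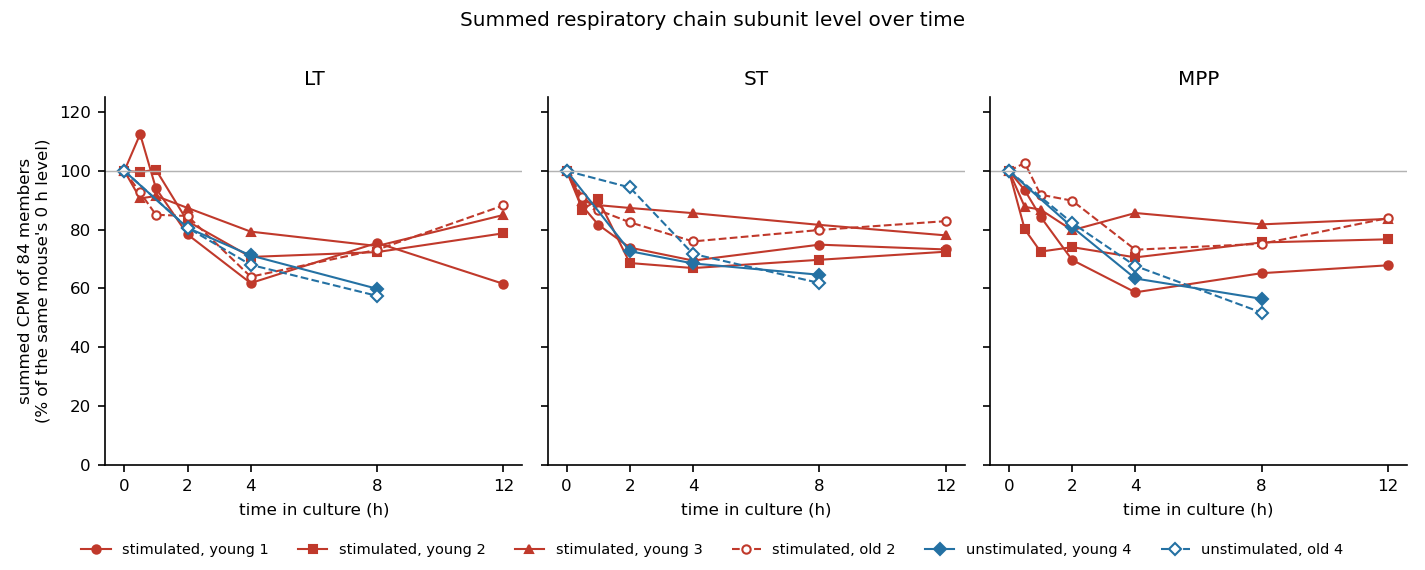
Summed CPM of the 84 members in each mouse as a percent of the same mouse at 0 h, against time in hours, for LT, ST and MPP. Red lines are stimulated and blue lines unstimulated mice, with open symbols for old mice. At 8 h the stimulated mice lie between 65.2% and 81.8% and the unstimulated ones between 51.8% and 64.7%, without overlap within a cell type.

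Depth and other cell types moved with these changes. Stimulated young libraries had 6243 to 13366 detected genes at 8 h and 10102 to 13409 at 0 h, and unstimulated ones 8848 to 10259 at 8 h and 10471 to 11914 at 0 h. Genes of primary granules and monocytes (6 genes, at least 5 of them with a count in each cell type and group) summed to 80.6 to 3966 CPM at 8 h in stimulated young cells, against 123 to 9726 CPM at 0 h, and to 1003 to 4717 CPM in unstimulated cells, against 8725 to 20065 CPM. Erythroid genes (7, at least 4 with a count) summed to 405 to 1759 CPM at 8 h with ligand, against 563 to 3447 CPM at 0 h, and to 69.2 to 635 CPM without ligand, against 979 to 2076 CPM. Late neutrophil granule genes (6 of 6) summed to 201 to 78555 CPM at 8 h in stimulated young cells, against 98.8 to 54992 CPM at 0 h. Without ligand they summed to 14646 to 43571 CPM at 8 h, against 16764 to 64447 CPM. B cell genes (5, at least 3 with a count) summed to 38.2 to 361 CPM at 8 h with ligand, against 37.2 to 456 CPM at 0 h, and to 3.61 to 70.8 CPM without ligand, against 135 to 293 CPM. T and NK cell genes (4, at least 1 with a count) summed to 0 to 69.6 CPM at 8 h with ligand, against 10.7 to 171 CPM, and to 2.66 to 55.7 CPM without, against 116 to 260.4 CPM. Markers of MPP themselves (3, at least 2 with a count) summed to 38.6 to 1287 CPM at 8 h with ligand, against 214 to 2543 CPM, and to 9.28 to 121 CPM without, against 207 to 565 CPM. Stem cell markers (7, at least 5 with a count) summed to 485 to 3547 CPM at 8 h with ligand, against 493 to 2430.3 CPM, and to 191 to 765 CPM without, against 275 to 492 CPM. Megakaryocyte genes (5, at least 3 with a count) summed to 0 to 85.4 CPM with ligand, against 40.5 to 271 CPM, and to 30.8 to 196 CPM without, against 36.3 to 195 CPM, and stromal genes (4, at least 1 with a count) to 0.978 to 244 CPM with ligand, against 2.24 to 584 CPM, and to 9.56 to 129 CPM without, against 0.847 to 13.1 CPM. Without ligand the sums of the MPP, T and NK, B cell, erythroid and primary granule lists did not overlap between the times. The part of these cells and of depth in the lower level was not tested. In young mouse 3, whose libraries had late granule genes at 0.00988% to 0.0485% of counts at 0 and 8 h, the members stood at 74.5%, 81.6% and 81.8% of 0 h in LT, ST and MPP. With those granule genes taken out of every total, the 8 h levels were 67.7% to 81.8% with ligand and 51.9% to 63.2% without. These values do not cover the other lists or depth.

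By complex, the average level at 8 h was below that at 0 h for each of the 5 complexes, in all 3 cell types and both courses. In stimulated young LT at 8 h, complex I stood at 70.6 ± 11.7%, complex II at 83.9 ± 25.4%, complex III at 85.2 ± 17.7%, complex IV at 76.2 ± 6.10% and complex V at 70.9 ± 5.05% of the 0 h level (SD, n = 3 mice). In ST the same complexes stood at 76.5 ± 7.21%, 88.2 ± 21.4%, 73.8 ± 7.78%, 74.4 ± 13.1% and 73.0 ± 9.24%, and in MPP at 72.4 ± 12.6%, 80.5 ± 15.5%, 84.4 ± 7.001%, 73.9 ± 0.785% and 71.9 ± 9.87%. At 2 h complex I was already at 72.2 ± 2.46% in LT, 62.7 ± 9.83% in ST and 58.8 ± 2.95% in MPP, while complex IV was at 97.7 ± 8.59% in LT, 77.1 ± 12.0% in ST and 79.0 ± 1.75% in MPP. At that time complex I lay below complex IV in each of the 3 mice in every cell type, at 69.5% to 74.2% against 90.6% to 107.3% in LT, 53.1% to 72.7% against 68.8% to 90.8% in ST and 57.0% to 62.2% against 77.1% to 80.4% in MPP. Both unstimulated mice also had complex I below complex IV at 2 h in every cell type. Their averages were 73.7% against 81.8% in LT, 72.7% against 85.8% in ST and 71.1% against 88.7% in MPP. Without ligand at 8 h, complexes I to V averaged 52.7%, 56.1%, 61.7%, 62.5% and 60.5% in LT, 58.4%, 59.2%, 71.5%, 70.2% and 62.1% in ST, and 48.2%, 44.1%, 63.5%, 63.3% and 53.3% in MPP (n = 2 mice). In unstimulated LT both values of complex I (52.5% and 52.9%) lay below those of the other complexes, and in unstimulated MPP both values of complex II (42.6% and 45.7%) did. The differences between complexes were not tested. The sums go by symbol, so Ndufa4 is counted in complex I and not in complex IV.

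Many members were lower at 8 h in all 6 mice, of both courses. In LT these were 31 of 79 tested members (39.2%), beside 8.89% of the 14401 genes tested. In ST they were 25 (31.7%), beside 8.9%, and in MPP 51 (64.6%), beside 17.3%. Across all 18 pairs of mouse and cell type, 18 members (22.8%) were lower at 8 h each time, beside 2.67% of all genes. Since CPM of weakly expressed genes are noisy, the counts were also taken over genes averaging 10 CPM or more: 30, 24 and 49 of 75 members in LT, ST and MPP, beside 12.7%, 12.4% and 22.2% of 8991 genes, and 18 members in all 18 pairs, beside 4.18%. The members' shares were above the shares of all genes in each of these counts. The 18 pairs come from 6 mice and are not 18 replicates. Members with every 8 h value below every 0 h value were also counted. In young mice with ligand there were 13 in LT (16.5%, beside 10.6% of all genes) and 11 in ST (13.9%, beside 11.1%). In MPP there were 20 (25.3%, beside 21.15%). Without ligand there were 58 in LT (73.4%, beside 24.4%), 50 in ST (63.3%, beside 25.0%) and 69 in MPP (87.3%, beside 31.5%). Old mouse 2 was left out of these counts without overlap, although its values stand beside those of young mice for single members below.

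The 18 members came from 4 of the 5 complexes. Complex I gave Ndufa10, Ndufa12, Ndufb8, Ndufb10, Ndufc2, Ndufs3 and Ndufs6, complex III gave Uqcr11 and Uqcrh, complex IV gave Cox4i1, Cox5b, Cox6c and Cox8a, and complex V gave Atp5a1, Atp5e, Atp5g1, Atp5g2 and Atp5j2. Of the complex II members, Sdha and Sdhc were lower in 16 pairs, Sdhd in 15 and Sdhb in 14. Atp5c1, Ndufa5, Ndufb5 and Ndufb9 were lower in 17 pairs. At the other end, Uqcrb was lower in 8 of 18 pairs, Ndufa11 in 9, Ndufs8 in 10, and Ndufa2, Ndufs5, Uqcr10 and Uqcrc2 in 11. Of members with no count in many libraries, Cox4i2 was lower in 8 pairs, Cox6a2 in 9, Cox7a1 in 3, and Cox7b2, Cox8b, Cox8c and Ndufa4l2 in at most 1.

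**Figure D4:**
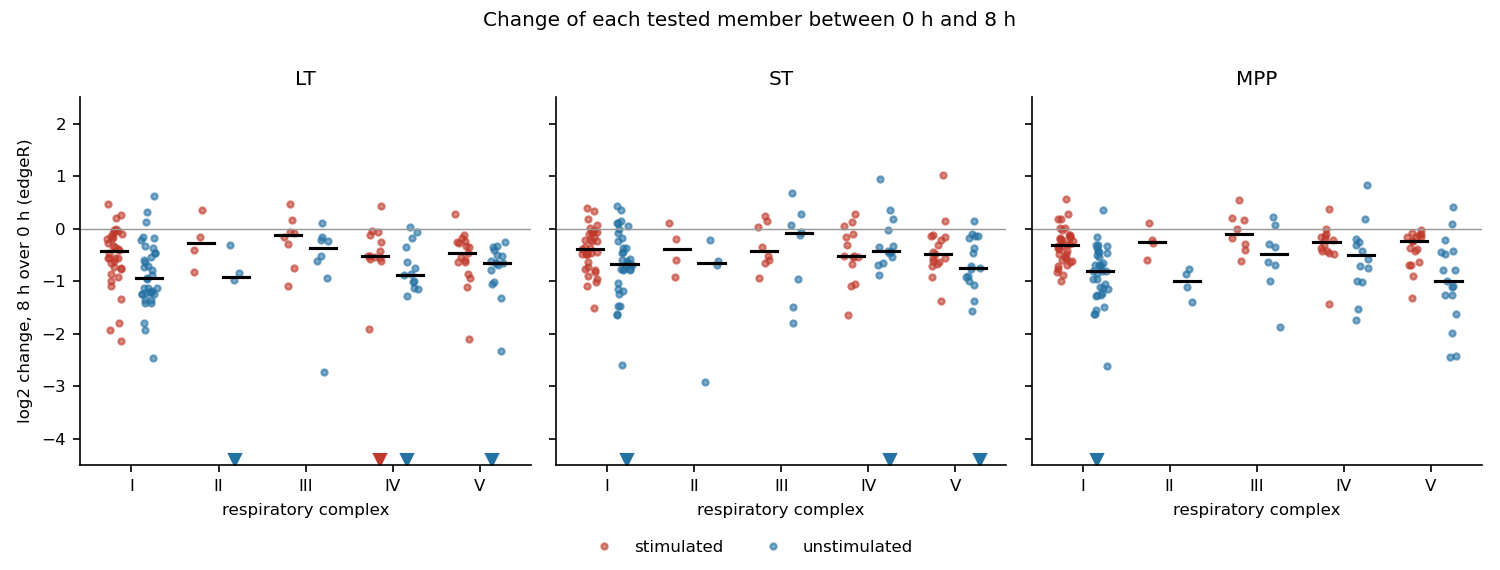
Log2 change from 0 to 8 h of each tested member, by complex and cell type, for stimulated cells (left) and unstimulated cells (right), with black bars for medians and triangles for members below the axis. Most points lie under 0, and the medians without ligand are lower than those with ligand except for complexes III and IV in ST.

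Complex I members differed widely in how closely they followed the sum. Ndufa10, an accessory subunit, had 5.80, 0 and 68.7 CPM at 8 h in stimulated LT of young mice 1, 2 and 3 and 58.9 CPM in those of old mouse 2, against 139, 113 and 103 CPM and 124 CPM at 0 h. Every value at 8 h lay below every value at 0 h, and young mouse 2 was at 0 at 8 h. In MPP it had 72.6, 45.5 and 86.3 CPM and 67.9 CPM at 8 h, against 141, 105 and 121 CPM and 153 CPM at 0 h with ligand and 21.8 and 89.7 CPM at 8 h, against 113 and 166 CPM at 0 h without, again with no overlap. Ndufa12, another accessory subunit, had 20.5, 28.2 and 24.3 CPM at 8 h in stimulated LT of young mice 1, 2 and 3 and 34.5 CPM in those of old mouse 2, against 47.8, 91.8 and 50.8 CPM and 55.0 CPM at 0 h, and 7.22 and 8.76 CPM at 8 h, against 33.2 and 66.9 CPM at 0 h in unstimulated LT. The groups did not overlap in LT in either course. Ndufb10, an accessory subunit of the membrane arm, had 0, 44.0 and 33.3 CPM and 48.3 CPM at 8 h, against 84.4, 121 and 70.8 CPM and 79.4 CPM at 0 h in stimulated LT, also without overlap.

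Among the core subunits of complex I, Ndufs3 was lower at 8 h in all 18 pairs. It had 28.2, 53.6 and 73.3 CPM and 63.6 CPM at 8 h, against 109.6, 120.3 and 106 CPM and 103 CPM at 0 h in stimulated MPP of young mice 1, 2 and 3 and old mouse 2, without overlap. Ndufv1, which binds NADH and FMN, had 55.2, 106 and 132 CPM and 99.3 CPM at 8 h, against 176, 162 and 158 CPM and 144 CPM at 0 h in stimulated MPP, without overlap, and 43.7, 93.7 and 143 CPM and 149.8 CPM at 8 h, against 129, 175 and 128 CPM and 151 CPM at 0 h in LT, where the times overlapped. Ndufs1, the largest core subunit with iron-sulfur clusters, was lower in 16 pairs and varied much between mice, with 8.19, 85.1 and 53.8 CPM and 65.6 CPM at 8 h, against 87.8, 89.8 and 109 CPM and 67.99 CPM at 0 h in stimulated LT. Ndufb8, whose promoter holds the NRF1 half-site, had 58.3 and 53.3 CPM at 8 h in unstimulated LT of young mouse 4 and old mouse 4, against 69.0 and 115 CPM at 0 h. It was lower in all 18 pairs.

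Complex II, the succinate dehydrogenase of the citric acid cycle, has its flavoprotein Sdha, its iron-sulfur protein Sdhb and the membrane anchors Sdhc and Sdhd. Sdha had 191, 307 and 332 CPM and 292 CPM at 8 h, against 333, 353 and 417 CPM and 364 CPM at 0 h in stimulated MPP and 124 and 222 CPM at 8 h, against 322 and 438 CPM at 0 h in unstimulated MPP. Every 8 h value was lower than every 0 h value of the same course. Sdhb had 161, 238 and 183 CPM and 201 CPM at 8 h, against 189, 244 and 163 CPM and 201 CPM at 0 h in stimulated MPP, where the times overlapped, and 87.1 and 81.7 CPM at 8 h, against 192 and 245 CPM at 0 h in unstimulated MPP, where they did not. Sdhc had 46.1, 22.8 and 10.1 CPM and 15.5 CPM at 8 h, against 10.7, 59.0 and 19.7 CPM and 16.8 CPM at 0 h in stimulated LT, without a common direction. It was at 0 in both unstimulated LT libraries at 8 h, with 76 counts over the pair at 0 h. With a floor of 3 counts over the group it was at least 18.02-fold lower there, for counting error only.

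Complex III members went separate ways. Uqcr11, a small accessory subunit, had 60.4, 64.7 and 18.2 CPM at 8 h in stimulated LT of young mice 1, 2 and 3 and 23.3 CPM in those of old mouse 2, against 113, 96.6 and 39.1 CPM and 56.1 CPM at 0 h, and 10.2 and 2.92 CPM at 8 h, against 49.0 and 51.6 CPM at 0 h in unstimulated LT. It was lower in each mouse, and the unstimulated values did not overlap. Uqcrh, the hinge protein, had 82.1, 144 and 84.6 CPM and 135 CPM at 8 h, against 115, 193 and 113 CPM and 185 CPM at 0 h in stimulated MPP, lower in each mouse. The core protein Uqcrc1 had 494, 312 and 309.7 CPM and 263 CPM at 8 h, against 357, 584 and 348 CPM and 363 CPM at 0 h in stimulated LT, higher at 8 h in young mouse 1. Uqcrb, which helps to bind ubiquinone, had 107, 111 and 65.8 CPM and 145 CPM at 8 h, against 88.2, 79.2 and 51.0 CPM and 92.4 CPM at 0 h in stimulated MPP, higher at 8 h in each mouse, but 19.1 and 18.6 CPM at 8 h, against 48.5 and 41.6 CPM at 0 h in unstimulated MPP, lower in both.

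Complex IV was represented by its main isoforms. Cox4i1, the regulatory subunit, had 348, 440.1 and 285 CPM at 8 h in stimulated LT of young mice 1, 2 and 3 and 378 CPM in those of old mouse 2, against 510.0, 694 and 388 CPM and 574 CPM at 0 h, and 521 and 479.8 CPM at 8 h, against 646 and 798 CPM at 0 h in unstimulated LT. Each mouse was lower at 8 h, and without ligand the times did not overlap. Cox8a, a small subunit, had 222, 181 and 93.7 CPM and 210.0 CPM at 8 h, against 274, 395 and 170.0 CPM and 289 CPM at 0 h in stimulated ST and 133 and 198 CPM at 8 h, against 242 and 244 CPM at 0 h in unstimulated ST. Cox6c had 111, 189 and 88.5 CPM and 157 CPM at 8 h, against 212, 240.1 and 127 CPM and 258 CPM at 0 h in stimulated MPP. Both were lower at 8 h in all 18 pairs, and young mouse 3 had the lowest of the stimulated values at both times. Ndufa4 had 132, 266 and 101 CPM and 246 CPM at 8 h, against 316, 451 and 211 CPM and 426 CPM at 0 h in stimulated MPP and 38.3 and 70.6 CPM at 8 h, against 144 and 159 CPM at 0 h in unstimulated MPP, lower in each mouse.

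Several members of complex V did not overlap between the times. The shares of all genes given above leave out old mouse 2 and take 1 group of cell type and course at a time. No such share was taken over all 6 groups together. Atp5a1, the alpha subunit of the catalytic head, had 740.4, 450.2 and 695 CPM at 8 h in stimulated LT of young mice 1, 2 and 3 and 599.6 CPM in those of old mouse 2, against 1021, 948 and 1052 CPM and 952 CPM at 0 h, and 568 and 741 CPM at 8 h, against 892 and 1196 CPM at 0 h in unstimulated LT. In all 3 cell types, in both courses, every 8 h value lay below every 0 h value. Atp5b, the catalytic beta subunit, had 435, 830.2 and 789.8 CPM and 781 CPM at 8 h, against 699.9, 1023 and 922 CPM and 753 CPM at 0 h in stimulated LT, where old mouse 2 was higher at 8 h. Atp5c1, the gamma subunit of the central stalk, had 188, 225 and 223 CPM and 244 CPM at 8 h, against 352, 427 and 359 CPM and 441 CPM at 0 h in stimulated MPP, without overlap. The 3 genes of the ring subunit differed: Atp5g2 had 76.7, 156 and 198 CPM and 179 CPM at 8 h, against 233, 334 and 312 CPM and 328 CPM at 0 h in stimulated MPP and did not overlap between the times in any of the 6 groups of cell type and course. Atp5g1 had 70.3, 97.8 and 94.4 CPM and 135 CPM at 8 h, against 143, 205 and 120.0 CPM and 204 CPM at 0 h in stimulated MPP and 22.8 and 37.2 CPM at 8 h, against 136 and 254 CPM at 0 h in unstimulated MPP. Atp5g3 was lower in 15 of 18 pairs.

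**Figure D5:**
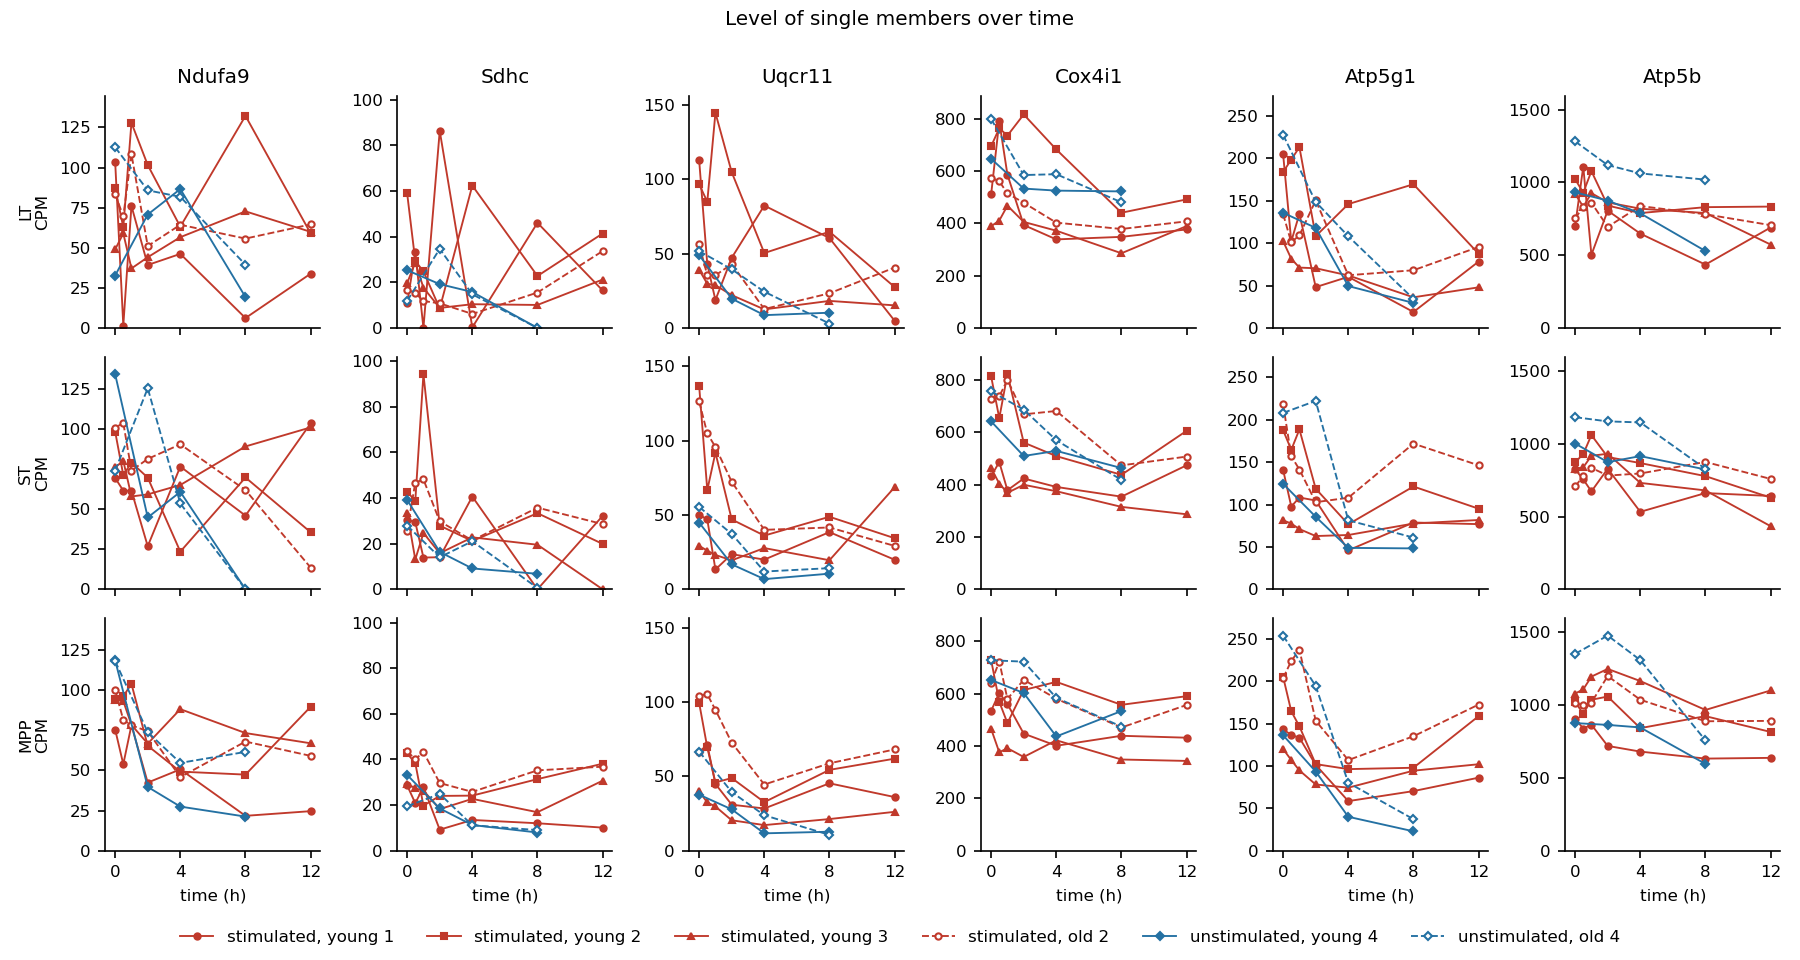
CPM of Ndufa9, Sdhc, Uqcr11, Cox4i1, Atp5g1 and Atp5b against time in hours in each mouse, for LT, ST and MPP, with red for stimulated and blue for unstimulated mice. Uqcr11, Cox4i1 and Atp5g1 are lower at 8 h than at 0 h in every mouse and cell type, and Ndufa9 reaches 0 in both unstimulated mice in ST at 8 h.

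Tested gene by gene, few members passed. Between 8 h and 0 h in stimulated young mice, edgeR's quasi-likelihood test with Benjamini-Hochberg adjustment called 0 of 79 members in LT, beside 0.285% of 13678 genes, 0 in ST, beside 0.263%, and 0 in MPP, beside 0.314%. At an unadjusted p under 0.05 it had 7 members lower in LT, beside 8.24% of all genes, 0 in ST, beside 4.96%, and 2 in MPP, beside 1.61%. DESeq2 called 0 in each, and limma voom 1 in LT, 0 in ST and 3 in MPP. In every mouse, 40 members were lower in LT, beside 21.8% of all genes, 41 in ST, beside 23.6%, and 58 in MPP, beside 35.9%. The median log2 change of the members was -0.41 in LT, -0.45 in ST and -0.28 in MPP, against -0.37, -0.26 and -0.21 for all genes, and the medians lay closest together in LT and MPP. Ndufa10 in LT had a log2 change of -2.14, SE 0.82 (adjusted p 0.354 by edgeR), and Atp5g2 in MPP a log2 change of -0.90, SE 0.37 (adjusted p 0.978). Neither passed.

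At 2 h with ligand 0 members were called in LT, beside 0.307% of all genes, 0 in ST, beside 0.307%, and 0 in MPP, beside 0.263%. Unadjusted, 3 were lower in LT, beside 6.13%, 0 in ST, beside 3.31%, and 0 in MPP, beside 0.621%, while DESeq2 called 2 in LT and limma voom 7 in MPP. In every mouse 28 members were lower in LT, beside 21.9%, 46 in ST, beside 25.3%, and 65 in MPP, beside 40%. At 12 h 0 were called in LT, beside 0.241%, 0 in ST, beside 0.446%, and 0 in MPP, beside 0.314%. Unadjusted, 4 were lower in LT, beside 5.93%, 3 in ST, beside 11.2%, and 0 in MPP, beside 1.92%. DESeq2 called 2 in LT, and limma voom 1 in ST and 1 in MPP. In every mouse 29 were lower in LT, beside 19.6%, 38 in ST, beside 23.9%, and 54 in MPP, beside 35.7%. At 12 h the median log2 change of the members was -0.34, -0.38 and -0.26 in LT, ST and MPP, against -0.29, -0.41 and -0.25 for all genes, so the members did not stand apart from other genes by this measure.

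Without ligand the members lay further below the other genes. Their median change at 8 h was -0.78 in LT, -0.61 in ST and -0.78 in MPP on the log2 scale, against 0.00, 0.00 and -0.07 for all genes. Among genes past a filter of 5 CPM the medians were -0.83, -0.67 and -0.86 for members, against -0.14, -0.13 and -0.22. In both mice, 66 members were lower in LT, beside 31.2% of all genes, 58 in ST, beside 31.7%, and 70 in MPP, beside 38.1%. At an unadjusted p under 0.05, 14 were lower in LT, beside 4.93%, 13 in ST, beside 5.06%, and 16 in MPP, beside 4.25%. After adjustment edgeR called 0 in LT, beside 0.201%, 1 in ST, beside 0.236%, and 0 in MPP, beside 0.236%. DESeq2 called 4, 3 and 7, and limma voom 1, 3 and 5. With mouse as a block, 2 members fell in LT (Atp5g1 and Sdhc) and 1 in MPP (Atp5g1). The nearest to the threshold without it were Atp5g1 in MPP (log2 change of -2.42, SE 0.67, adjusted p 0.134 by edgeR) and in LT (log2 change of -2.34, SE 0.67, adjusted p 0.148).

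The 1 member called was Ndufa9, an accessory subunit of complex I that binds NADPH. In stimulated ST at 8 h it had 45.9, 69.7, 89.1 and 61.9 CPM in young mice 1, 2 and 3 and old mouse 2. In unstimulated ST of young mouse 4 and old mouse 4 it had 134 and 74.0 CPM at 0 h, 44.8 and 125.3 CPM at 2 h, 60.7 and 53.5 CPM at 4 h and 0 counts in both at 8 h. Both unstimulated libraries thus lay below all 4 stimulated ones. Against a floor of 3 counts over the pair, Ndufa9 was at least 117-fold lower at 8 h than at 0 h, and edgeR gave an adjusted p of 3.2e-07. In unstimulated LT it had 19.2 and 39.4 CPM at 8 h, against 32.6 and 113 CPM at 0 h, and in unstimulated MPP 21.3 and 61.6 CPM at 8 h, against 119 and 118 CPM at 0 h, with counts in every library. With the unstimulated ST libraries fitted alone it was not called. Ndufs5 in unstimulated MPP was likewise at 0 in both mice at 8 h, with 84 counts at 0 h (at least 21.1-fold lower), but it did not pass.

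The change in the 4 stimulated mice, old mouse 2 included, was then set against the change in unstimulated mice, although the courses differ in mice and library sets. In LT 57 of 79 members had the higher change with ligand, in ST 57 and in MPP 65. The median difference of changes was 0.39, 0.30 and 0.53 on the log2 scale, against 0.00, 0.01 and 0.17 for all genes. Members whose changes with ligand lay above both changes without it numbered 18 in LT, beside 6.37% of all genes, 18 in ST, beside 9.05%, and 43 in MPP, beside 15.2%. edgeR's quasi-likelihood test called 0 members in LT, beside 0.0347%, 1 in ST (Ndufa9, adjusted p 6.93e-06), beside 0.0903%, and 0 in MPP, beside 0.0625%. At an unadjusted p under 0.05, 3 were higher in LT, beside 3.01%, 4 in ST, beside 3.92%, and 5 in MPP, beside 3.01%. DESeq2 called 1, 2 and 0 members, and limma voom 1, 1 and 1. Uqcrb in ST had a difference of 1.96 (SE 0.75, adjusted p 0.664 by edgeR), and Ndufa6 in MPP lay the other way at -0.65 (SE 0.77). The unstimulated libraries were also mostly the shallower ones at 8 h, and the part of depth in these differences was not tested.

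The stimulated change was compared between cell types for LT against MPP at 8 h. For this difference, edgeR called 0 of 79 members and 0% of all genes, and 0 members had an unadjusted p under 0.05, beside 3.22% of genes in either direction. DESeq2 and limma voom called 0 members. The median member differed by -0.11 on the log2 scale, against -0.23 for all genes, and by 0.10 with RLE scaling, where the median of all genes was -0.09, so its sign depends on the scaling. Uqcrfs1, the Rieske iron-sulfur protein of complex III, had one of the most negative differences, at -1.28 (SE 0.70), and Cox7a2 the most positive among those named, at 0.73 (SE 1.00).

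Other mitochondrial genes gave the setting for these values. Of mitochondrial ribosomal protein genes, 76 were tested, and their median change at 8 h was -0.81, -0.33 and -0.48 in stimulated LT, ST and MPP, and -0.77, -0.53 and -0.72 in unstimulated cells. Genes of the citric acid cycle (18 tested) had medians of -0.47, -0.13 and -0.37 with ligand and -0.61, -0.49 and -0.60 without. Assembly factors of the chain (38 tested) had medians of -0.36, -0.35 and -0.40 with ligand and -0.51, -0.68 and -0.60 without, and cytochrome c with mitochondrial carriers (12 tested) -0.75, -0.52 and -0.58 with ligand and -0.51, -0.30 and -0.62 without. Genes of mitochondrial biogenesis and mitochondrial DNA expression (18 tested) stood at 0.14, -0.62 and -0.68 with ligand and at 0.00, -0.24 and -0.42 without. For all genes the medians were -0.37, -0.26 and -0.21 with ligand and 0.00, 0.00 and -0.07 without. No gene of these lists was called between 8 h and 0 h, beside 0.201% to 0.314% of all genes. At an unadjusted p under 0.05, 3, 0 and 1 ribosomal protein genes were lower in stimulated LT, ST and MPP, and 7, 3 and 4 in unstimulated cells. The same counts were 4, 0 and 0 with ligand and 4, 2 and 2 without for the citric acid cycle, 4, 0 and 0 and 2, 5 and 3 for assembly factors, 2, 1 and 0 and 2, 0 and 1 for cytochrome c and carriers, and 2, 1 and 1 and 0, 1 and 2 for biogenesis. Over all genes the shares lower at that threshold were 8.24%, 4.96% and 1.61% with ligand and 4.93%, 5.06% and 4.25% without. The only call in these lists was at 12 h, in stimulated ST, where 0.446% of all genes were called. It was a fall of Suclg2, a subunit of succinyl-CoA ligase in the citric acid cycle (log2 change -11.9, SE 2.84, adjusted p 0.034 by edgeR and Benjamini-Hochberg). Its counts were not examined, so the size of the fall is uncertain.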

How the data were processed

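Polyadenylated RNA of sorted mouse cells was sequenced with SMART-seq2, per the labels' protocols. The authors deposited expected counts per gene from RSEM on the mm9 build, per the submitters' processing notes, for 127 libraries and 23366 symbols, and 89.5% of the deposited values were whole. RSEM shares out reads that match several genes, so near-identical copies and pseudogenes can trade counts. Values were rounded to whole numbers for testing. The 6 libraries with 7 to 41 counts, all LT of old mouse 2, were left out, and technical repeats were summed (12 sums of up to 3 repeats) to 108 libraries of 990809 to 11764643 counts. Levels are CPM of all counts of a library. Intervals and floors cover counting error only.

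Groups came from the labels. Libraries at 0 h were used as the baseline of their course, although some carry the label of the ligands. Replicates are different mice, told apart by a date in the column names of the stimulated ones and by age in the unstimulated pair. edgeR 4.0.16 (R 4.3.3) fitted quasi-likelihood models with TMM scaling and the filterByExpr filter, with groups of cell type, course and time, over all genes, and p-values were adjusted by Benjamini-Hochberg over the genes tested in a comparison, with 0.05 as the threshold. Stimulated comparisons used 63 libraries and 13678 genes, those with unstimulated cells 72 and 14401, cell types at 0 h 12 and 11568, and ages 18 and 12983. These 22 comparisons are not independent, since they share libraries. Counts by mouse compared log2(CPM + 1). DESeq2 1.42.0, limma 3.58.1 (voom with quality weights), RLE size factors, a filter of 5 CPM, at least 8000 detected genes, mouse as a block, the compared libraries alone and each mouse left out were alternatives. The fitting was tested on simulated data. Python 3.11.15, numpy 2.4.6, pandas 2.3.3 and matplotlib 3.10.9 were used for the rest. Sequences are from RefSeq, GRCm38.p6, and all 84 members matched a RefSeq symbol.

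Mice pair the libraries, since the libraries of a course come from 1 mouse. The main fits did not use this pairing, and mouse as a block was an alternative only. As a check, deviations from the group means over 8841 genes were correlated between libraries. Within the same mouse the mean r was 0.243, 0.0983 and 0.5 in young mice 1, 2 and 3. With other mice it was -0.127, -0.0435 and -0.248. The deviations of the mice in a group cancel out, so these negative values follow from the subtraction and say nothing of pairing.

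The members and gene lists were chosen with earlier results of these data known. Members are named if they were called, were among the 3 largest rises or falls of a comparison (mean CPM of 10 or more, 1 direction in every mouse), or were in a fixed set of main subunits and isoforms. Others (Ndufs6, Ndufc2, Ndufb5, Ndufb9, Atp5j2, Cox5b, Uqcr10 and the sparse members) were named after their values were seen.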

Additional observations from a re-analysis of the deposited data

Results flagged for a closer look

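At 0 h, 3 of 78 values checked over the 4 young mice had 1 mouse far from the rest, and each time it was young mouse 2. Chance alone sets about 1 in 20 such groups apart. Uqcrc1 was at 584 CPM in LT of young mouse 2 and at 339 to 357 CPM in LT of the other young mice. Atp5e was at 147 CPM in LT of young mouse 2 and at 67.5 to 80.6 CPM in the others. Uqcrh was at 193 CPM in MPP of young mouse 2 and at 99.2 to 114.9 CPM in the others.

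The change of Ndufa9 from 0 to 8 h in ST differed between stimulated and unstimulated mice (adjusted p 6.93e-06, edgeR's quasi-likelihood test with Benjamini-Hochberg adjustment over 14401 genes). At 8 h the stimulated libraries were at 45.9 to 89.1 CPM, and both unstimulated ones were at 0 counts. Of 168 values compared (summed complexes and named members in 3 cell types), 4 moved one way from 0 to 8 h in every stimulated mouse and the other way in both unstimulated mice. None of these differences passed edgeR's quasi-likelihood test of the difference itself (adjusted p 1 for each). Some of the members compared had been named for a common direction in these same libraries. The count was not taken over all genes, so it cannot show whether 4 is more than chance gives. Uqcrb in MPP was higher at 8 h with ligand, by at least 14.7 CPM in the 4 stimulated mice, and its differences were -29.4 and -23.0 CPM in the unstimulated mice. Ndufa6 in LT was lower with ligand, with its smallest difference at -4.71 CPM, and its differences were 4.84 and 12.4 CPM without ligand. Cox7c in ST was lower with ligand, with its smallest difference at -10.6 CPM, and its differences were 4.99 and 9.96 CPM without ligand. Atp5sl in MPP was lower with ligand, with its smallest difference at -15.6 CPM, and its differences were 0.972 and 2.49 CPM without ligand.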

How the results depend on the processing

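Counts of members called were small, and the tool changed them. DESeq2 called 2 members in LT at 2 h, 2 in LT at 12 h, 4, 3 and 7 in unstimulated LT, ST and MPP at 8 h, and 1 and 2 for the difference between courses in LT and ST. limma voom called 7 in MPP at 2 h, 1 and 3 in stimulated LT and MPP at 8 h, 1 and 1 in ST and MPP at 12 h, 1, 3 and 5 in unstimulated LT, ST and MPP, and 1 and 1 for the difference between courses in LT and MPP. With at least 8000 detected genes, 3 and 1 were called in unstimulated LT and MPP and 1 for the difference in LT. With mouse as a replicate block, 2 and 1 were called in unstimulated LT and MPP, and the block changed no other call. With the compared libraries alone, 0 were called in unstimulated ST and 1 for the difference in MPP. Leaving out 1 mouse gave 0 to 1 members in stimulated LT at 8 h (1 without young mouse 3). It gave 0 to 3 in unstimulated LT, 1 to 2 in unstimulated ST, 0 to 1 in unstimulated MPP and 0 to 1 for the difference in LT, the higher value each time without young mouse 1. The causes were not tested. Of the other counts, 171 and, with a mouse left out, 91 stayed within 1.5 times, most of them at 0 under both settings. Of the summed levels at 8 h, in all or by complex, 25 alternatives moved by more than the SD between mice and 23 did not. The 90 values with a mouse left out did not move so far, and no alternative turned to a rise. Of the medians, 38 moved by more than that SD and 157 did not, or 19 and 77 with a mouse left out. With TMM scaling the summed level at 8 h was 80.0%, 84.3% and 87.0% of 0 h in stimulated LT, ST and MPP and 65.8%, 73.5% and 64.6% in unstimulated ones. Medians of members changed sign for LT against MPP change at 8 h (0.10 with DESeq2 and with RLE), for LT against ST at 0 h without young mouse 2 (0.01) and between ages as given above. With RLE size factors the median log2 change of all genes was -0.36 in ST at 2 h and -0.39, -0.32 and -0.36 in MPP at 2, 8 and 12 h with ligand, against -0.22, -0.21, -0.21 and -0.25 with TMM, and it was -0.22 in unstimulated MPP, against -0.07. Ndufs5 and Sdhc had no count in some libraries at this depth, so single changes of theirs are uncertain.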
